A study of Schizosaccharomyces pombe with 8 samples.

Results

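Ligation pairs whose ends lie 500 kb or more apart on the same chromosome were taken from 2 libraries of fission yeast (Schizosaccharomyces pombe) meiotic chromatin. They were chosen by chromosome and position alone, whatever their hot or cold class. They made up 23890 of 101984 pairs in the interacting library (23.4%), against 34745 of 123434 pairs in the de-crosslinked library (28.1%). Pairs with both ends within 500 bp of each other were counted once, as a ligation event, which left 9118 of 35511 events (25.7%) in the interacting library, against 16043 of 56018 events (28.6%) in the de-crosslinked library. Ends were assigned to arms by the centromere midpoint of each chromosome, to the nearest kb. On this split 4057 interacting and 7430 de-crosslinked events joined places on the same arm, and 5061 interacting and 8613 de-crosslinked events joined places on both sides of the centromere.

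Both libraries came from pat1-114 rec12Δ cells carrying Rec27-GFP, grown as 500 mL cultures, starved of nitrogen for about 18 h, brought into meiosis at 34 °C and harvested at 3.5 h. The pat1-114 allele lets a culture enter meiosis together on a temperature shift, and the rec12 deletion, carried by both groups, leaves cells without the enzyme that cuts DNA to start meiotic recombination. Chromatin fixed with 1% formaldehyde was sheared to about 1000 bp and immunoprecipitated through GFP; in the interacting library the DNA was ligated while still crosslinked, and in the de-crosslinked library after the crosslinks had been removed. Each group is 1 library, so no result below has a replicate check, the tests compare libraries and not conditions, and intervals (95% throughout) cover counting error only. The other 6 samples of the series were not analysed here.

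In meiotic prophase fission yeast forms linear elements, thread-like protein axes along the chromosomes, in place of a synaptonemal complex. Rec27 is part of them, and it binds most strongly at meiotic recombination hotspots. At this stage the nucleus moves back and forth in the horsetail movement, led by the spindle pole body, to which all telomeres are attached in the bouquet, while the centromeres are away from it. A long-range ligation pair can therefore be read against a few simple arrangements: ends of a chromosome together, arms folded at the centromere, or hotspots joined with hotspots.

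The long-range joins found in both libraries most often at the same place included pairs of related genes, and the stretches below are printed to show what such joined places look like. Each is a coding stretch of 90 bases close to both ends of an event, chosen near the ends among stretches with few differences, so that it can be more alike than the whole alignment, and read from RefSeq ASM294v3 on the genome strand given, with the bases that differ between the partners in capitals. The gpd3 and tdh1 stretches, from genes for the glycolytic enzyme glyceraldehyde-3-phosphate dehydrogenase, differ at 3 of 90 bases, those of the ribosomal protein genes rpl803 and rpl802 at 3, those of the phosphate transporter genes pho841 and pho84 at 6, and those of the histone H4 genes hhf2 and hhf3 at 8. The last 2 stretches, from SPCC1884.01 and SPCC569.05C, lie near opposite ends of chromosome III, were joined in the interacting library alone and differ at 5. Over the whole alignment, identity was 93.4% for gpd3 and tdh1 and 83.7% for pho841 and pho84. The alignment found for hhf2 and hhf3 was the one also found for the neighbouring histone H3 genes hht2 and hht3, so no identity is given. A junction of wsc1 with mtl3, also in both libraries, had a less alike stretch (22 of 90 bases differ) that is not printed.
gpd3 chrII:579152-579241 (strand plus): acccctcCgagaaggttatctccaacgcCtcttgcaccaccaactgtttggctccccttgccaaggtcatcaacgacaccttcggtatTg
tdh1 chrII:2808058-2808147 (strand plus): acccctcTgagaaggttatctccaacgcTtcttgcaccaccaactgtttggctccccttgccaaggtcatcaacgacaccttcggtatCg
rpl803 chrII:601637-601726 (strand plus): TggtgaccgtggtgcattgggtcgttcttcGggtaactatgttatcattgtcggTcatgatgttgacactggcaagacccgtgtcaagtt
rpl802 chrII:1727033-1727122 (strand plus): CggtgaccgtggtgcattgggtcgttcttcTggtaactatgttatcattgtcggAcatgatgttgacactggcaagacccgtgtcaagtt
pho841 chrII:135410-135499 (strand plus): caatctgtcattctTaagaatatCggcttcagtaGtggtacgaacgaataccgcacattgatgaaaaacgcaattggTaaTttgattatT
pho84 chrII:4445356-4445445 (strand plus): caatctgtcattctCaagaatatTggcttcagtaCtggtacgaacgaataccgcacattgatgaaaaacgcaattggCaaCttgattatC
hhf2 chrII:1364622-1364711 (strand plus): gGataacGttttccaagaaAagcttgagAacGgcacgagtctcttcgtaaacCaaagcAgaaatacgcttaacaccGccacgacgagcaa
hhf3 chrII:3529879-3529968 (strand minus): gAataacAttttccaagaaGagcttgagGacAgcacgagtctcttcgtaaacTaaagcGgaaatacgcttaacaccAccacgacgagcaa
SPCC1884.01 chrIII:38483-38572 (strand plus): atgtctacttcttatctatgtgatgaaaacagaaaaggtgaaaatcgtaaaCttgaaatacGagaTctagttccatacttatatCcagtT
SPCC569.05C chrIII:2427495-2427584 (strand minus): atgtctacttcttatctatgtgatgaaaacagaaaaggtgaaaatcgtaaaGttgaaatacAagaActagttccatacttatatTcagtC

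Distance alone set these events little apart from joins between chromosomes. For each class of event a level was computed: the number seen over the number given by the library's own end counts in 1 kb bins, divided by the same ratio for joins between chromosomes, so that a level of 1 is as often as DNA of different chromosomes was joined. The same-arm level was 0.987 (0.954 to 1.02) in the interacting library, against 1.01 (0.981 to 1.03) in the de-crosslinked library. Their ratio was 0.981 (0.940 to 1.02; two-sided Wald chi-square test on the counts, adjusted p = 0.416 over 9 results). The level across the centromere was 1.03 (0.995 to 1.06) in the interacting library, against 0.998 (0.975 to 1.02) in the de-crosslinked library, with a ratio of 1.03 (0.989 to 1.07; chi-square test, adjusted p = 0.292). Neither level differed from its partner beyond counting error.

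Split by distance, the same-arm levels ran between 0.960 at 3000 to 4000 kb and 1.01 at 750 to 1000 kb in the interacting library, and between 0.973 and 1.05 in the de-crosslinked library. Every same-arm interval of either library covered 1. Across the centromere the interacting level was 1.10 (1.02 to 1.18) at 1000 to 1500 kb, the only bin of either library whose interval did not reach 1, against 1.04 (0.985 to 1.10) in the de-crosslinked library. The ratio there was 1.06 (0.964 to 1.16). The farthest events, 4000 to 6000 kb apart and so on chromosomes I and II alone, had levels of 1.02 (0.937 to 1.12) in the interacting library from 516 events and 0.985 (0.921 to 1.05) in the de-crosslinked library from 886.

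**Figure D1:**
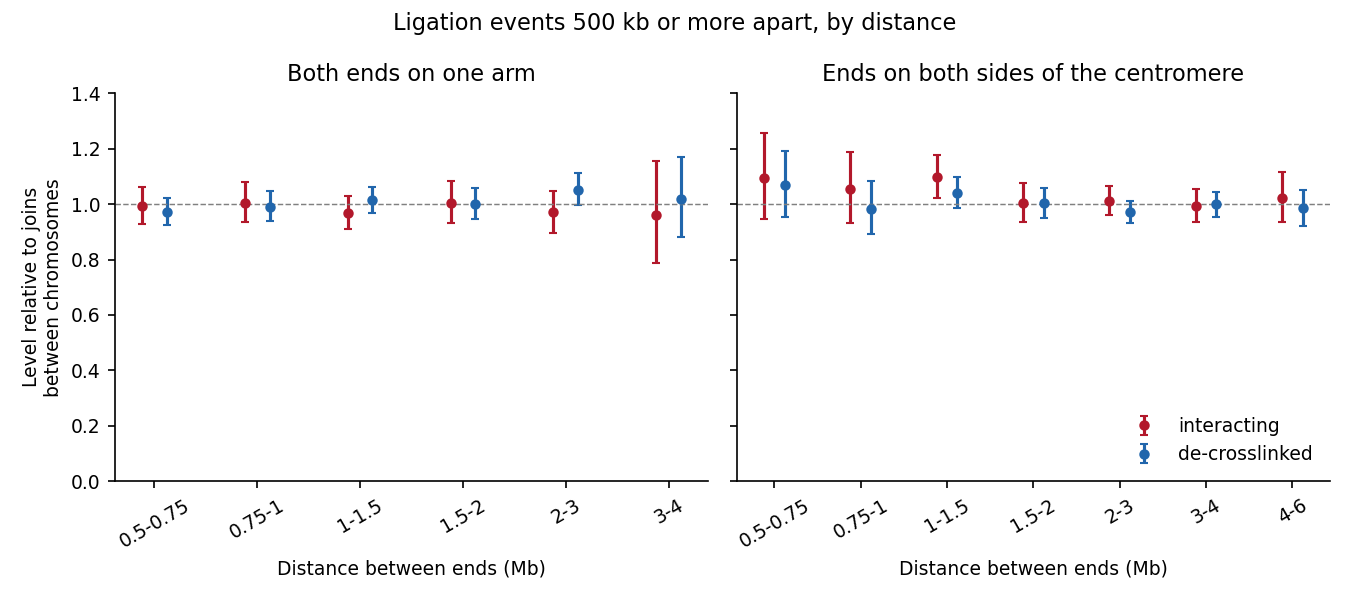
Level of events 500 kb or more apart by distance between the ends, in Mb, for ends on the same arm and on both sides of the centromere. Points are the interacting (red) and de-crosslinked (blue) libraries, bars are 95% counting intervals, and the dashed line is the level of joins between chromosomes. All points lie between 0.960 and 1.10, and only the interacting point at 1 to 1.5 Mb across the centromere has an interval that leaves the line.

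The 500 kb limit did not fall at a step in the data. Just outside it, at 400 to 500 kb, the level was 0.996 from 442 events in the interacting library, against 1.06 from 830 events in the de-crosslinked library. Just inside, at 500 to 600 kb, it was 1.02 from 438 interacting events and 0.989 from 750 de-crosslinked events. Where the libraries did part was in the share of same-chromosome events that were this long: 57.4% (56.6 to 58.2) in the interacting library, against 74.7% (74.2 to 75.3) in the de-crosslinked library, where random joining of each library's own ends gives 79.4% for both (Fisher's exact test, two-sided, adjusted p = 7.4e-271). Events closer than 500 kb, the rest of this total, numbered 6762 in the interacting library, against 5420 in the de-crosslinked library.

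Arm by arm, the levels again lay near 1. Relative to joins of the same chromosome with the others, the left arm of I stood at 0.983 (0.942 to 1.02) in the interacting library, against 1.00 (0.971 to 1.03) in the de-crosslinked library, and the right arm of II at 0.994 (0.937 to 1.05) in the interacting library and at 1.01 (0.966 to 1.05) once de-crosslinked. Across the centromere chromosome III had the highest interacting level of the 3 chromosomes, 1.07 (0.981 to 1.16), against 1.04 (0.972 to 1.11) in the de-crosslinked library; the interval of their ratio, 0.924 to 1.14, covers 1.

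**Figure D2:**
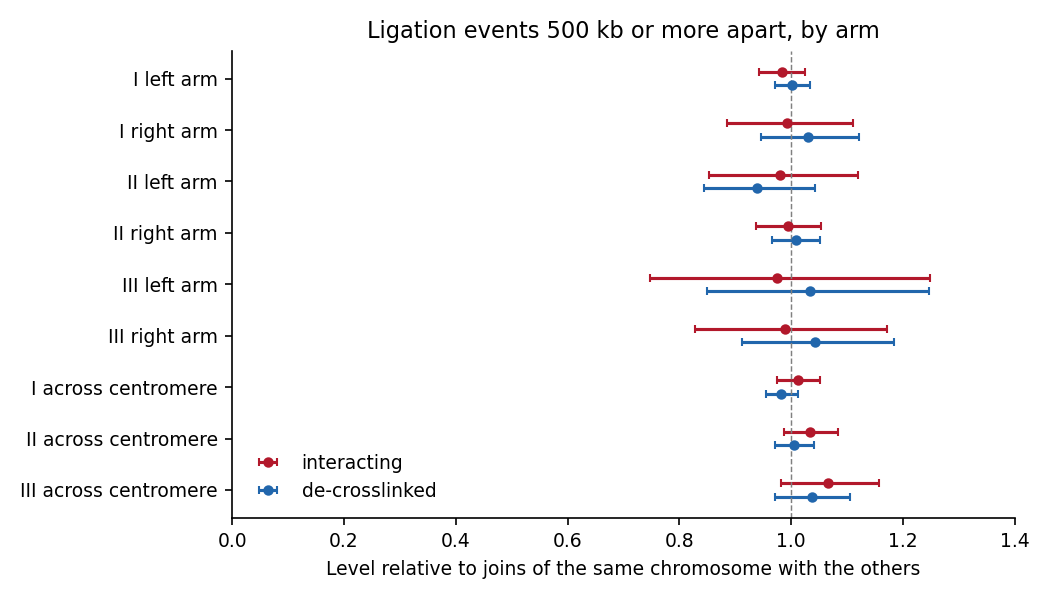
Level of events 500 kb or more apart for each arm and across each centromere, relative to joins of the same chromosome with the other chromosomes. Points are the interacting (red, upper) and de-crosslinked (blue, lower) libraries and bars are 95% counting intervals. All intervals cover 1, and that of the left arm of chromosome III is the widest in each library, from 62 interacting and 110 de-crosslinked events on the left arm.

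The share of long-range events that crossed the centromere was slightly larger in the interacting library than in the de-crosslinked library. It was 55.5% (54.5 to 56.5) in the interacting library, against 53.7% (52.9 to 54.5) in the de-crosslinked library (Fisher's exact test, adjusted p = 0.0123). Random joining of each library's ends gives 54.5% for the interacting library, against 53.9% for the de-crosslinked library. In Fisher's exact test the call was lost without chromosome I (adjusted p = 0.0692), without chromosome II (0.0634) and with only events of 2 or more pairs (0.276).

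Folding of the arms at the centromere was looked for as events whose ends lie at distances from the centromere that differ by under 200 kb. They were 12.2% (619 of 5061) of cross-centromere events in the interacting library, against 12.5% (1075 of 8613) in the de-crosslinked library (Fisher's exact test, adjusted p = 0.687). Counted from the chromosome ends instead, mirrored events were 14.1% in the interacting, against 14.7% in the de-crosslinked library (Fisher's exact test, adjusted p = 0.404). Events with an end within 100 kb of a centromere midpoint, a window set by distance and not by chromatin type, were 6.77% in the interacting, against 6.44% in the de-crosslinked library (Fisher's exact test, adjusted p = 0.404). None of these 3 shares passed the test.

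Joins of chromosome ends and of centromere regions with the middle of the arms were compared next. Cross-centromere events from within 100 kb of a chromosome end to the middle of the other arm had a level of 1.13 (1.02 to 1.26) in the interacting library, against 1.02 (0.930 to 1.11) in the de-crosslinked library, with a ratio of 1.12 whose interval, 0.977 to 1.28, covers 1. Those from the 100 kb beside the centromere to the middle of the other arm had 1.13 (1.01 to 1.26) in the interacting, against 1.05 (0.958 to 1.14) in the de-crosslinked library, and the ratio's interval, 0.936 to 1.24, again covers 1. On the same arm, chromosome end to middle stood at 0.913 (0.806 to 1.03) in the interacting library, against 0.962 (0.876 to 1.05) in the de-crosslinked library. Centromere region to middle stood at 1.05 (0.926 to 1.18) in the interacting library on the same arm, against 1.01 (0.918 to 1.10) in the de-crosslinked library. Joins of a chromosome end with the centromere region across the centromere were few, 14 interacting events with a level of 1.05 (0.574 to 1.76) and 18 de-crosslinked events with a level of 0.804 (0.477 to 1.27).

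Joins of both ends of the same chromosome, each within 100 kb of its end, stood farther from 1 than any other zone or distance class given a level here. There were 24 among 5061 cross-centromere events in the interacting library (0.474%, 0.304 to 0.705), against 16 among 8613 in the de-crosslinked library (0.186%, 0.106 to 0.302; Fisher's exact test, adjusted p = 0.0123). The library's own ends give 7.61 such events for the interacting, against 10.2 for the de-crosslinked library, so the levels were 3.61 (2.31 to 5.37) in the interacting, against 1.60 (0.916 to 2.60) in the de-crosslinked library, with a ratio of 2.25 (1.20 to 4.25). Chromosome I gave 6 interacting and 5 de-crosslinked events, II gave 8 interacting and 4 de-crosslinked, and III gave 10 interacting and 7 de-crosslinked. The interacting level was 3.80 on I, 3.39 on II and 3.69 on III, each from 10 events or fewer.

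A large part of these events joined near-copies of the same sequence. Fission yeast subtelomeres carry long duplications shared between chromosome ends, and 12 of the 24 interacting and 6 of the 16 de-crosslinked end-to-end events had their ends at matching places of 2 similar stretches. On III, 7 of the 10 interacting events ran along inverted near-copies, 4 of them in an alignment of 21845 bp with 98.8% identity. Their left and right ends kept in step: 28828 with 2435218, 31010 with 2433018, 31891 with 2432125 and 33478 with 2430388, the last with 8 pairs. On I, SPAC977.14C near the left end was joined with SPAC750.01 near the right end in both libraries, at 60340 and 5555981 in the interacting and at 60333 and 5556112 in the de-crosslinked library, in 2 interacting and 4 de-crosslinked pairs. Without events between similar sequences, a setting chosen after seeing the data, the end-to-end shares were 0.242% in the interacting, against 0.117% in the de-crosslinked library (Fisher's exact test, adjusted p = 0.214), and the call did not hold. It was also lost without chromosome II (0.0866), without III (0.0629), with windows of double the size (0.117) and without events whose ends share a 16-base word (0.198).

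**Figure D3:**
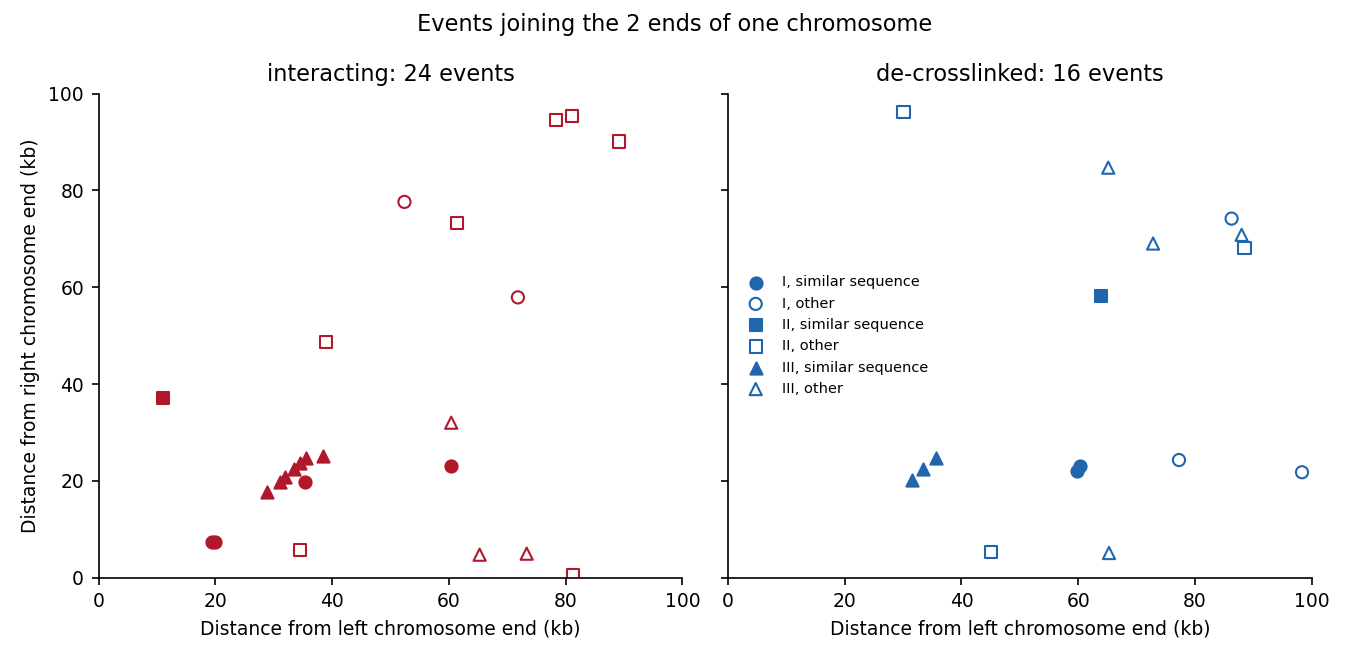
Events joining both ends of the same chromosome, plotted by the distance of each end from the left and the right chromosome end in kb, with the interacting library left and the de-crosslinked library right. Shapes are chromosomes, and filled symbols are events at matching places of similar sequences. The filled triangles of chromosome III lie along a line in both libraries, and 12 of 24 interacting and 6 of 16 de-crosslinked symbols are filled.

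Among the end-to-end events with no such similarity, 12 interacting and 10 de-crosslinked, a few genes recurred; they were picked out after their values were seen. On II, the phosphate transporter gene pho84 was reached from 78291 and 81054 near the left end in the interacting library, and a place near it from 30066 in the de-crosslinked library. The side of tlh2 at the right end of II was reached from 34419 and 81264 in the interacting library and from 45023 in the de-crosslinked library. On III, rnc1, the gene of an RNA-binding protein, was joined with the far right end, near SPCC569.01C, from 65256 (interacting) and from 65268 (de-crosslinked), and aah1 with the same end from 73318 (interacting). The vms1 gene on the right of III was reached from 72820 and 87989 in the de-crosslinked library.

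Across the whole set, events between similar sequences made up a larger share in the interacting library. An event was placed here when its ends lay at matching places, within 1000 bp, of a self-alignment of the chromosome, a measure chosen after seeing the data. They numbered 138 of 9118 events (1.51%, 1.27 to 1.79) in the interacting library, against 109 of 16043 (0.679%, 0.558 to 0.819) in the de-crosslinked library, with a ratio of 2.23 (Fisher's exact test, p = 3.59e-10). With the second end moved by 10 kb down or up the chromosome, 9 and 8 interacting events met the same condition, and 8 and 14 de-crosslinked events. Chromosome III had the largest share, 6.58% (51 of 775) of interacting and 3.27% (42 of 1283) of de-crosslinked events. Reads that come from near-copies can be placed at the wrong copy, and the part of this in the counts was not tested.

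Events between similar sequences were sorted into classes by the annotation at or near both ends. Events with both ends within 1000 bp of long terminal repeats or of Tf2 elements, the retrotransposons of this yeast, numbered 61 interacting and 44 de-crosslinked. The aligned sequence itself need not be such an element: 31010 with 2433018 on III, in the alignment of 21845 bp, was counted here. The wtf genes, a family of meiotic drivers that make a poison and an antidote and kill spores that do not inherit them, took 30 interacting and 27 de-crosslinked events, all on chromosome III, where 23 of 25 annotated members lie. Events with both ends in protein-coding genes numbered 23 interacting and 18 de-crosslinked, tRNA genes took 4 interacting and 3 de-crosslinked, and other sequences 20 interacting and 17 de-crosslinked. The genes of a protein-coding event were not required to be related: atp25 with rpl302, over 370 bp with 67.8% identity, was counted here. Each class was a larger share of long-range events in the interacting library, as with the wtf genes at 30 of 9118 interacting and 27 of 16043 de-crosslinked events. The classes were not tested one by one.

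Joins of wtf genes with each other were more frequent than the density of their ends gives. Events with both ends within 1000 bp of wtf genes numbered 31 in the interacting, against 27 in the de-crosslinked library, where the density of ends gives 0.894 in the interacting, against 0.737 in the de-crosslinked library. They took 31 of 775 long-range events of chromosome III in the interacting library, against 27 of 1283 in the de-crosslinked library. Of the 31 interacting events 30, and of the 27 de-crosslinked events all, were among the events between similar sequences above. The limit given there for reads from near-copies holds for this excess too. Examples, picked after their values were seen, are wtf4 with wtf18, 1585.81 kb apart, in 4 interacting pairs, and wtf5 with wtf25, 1975.71 kb apart, in 5 de-crosslinked pairs.

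Of the protein-coding joins, 14 events of each library lay at a junction found in the other library too. The gpd3 and tdh1 genes printed above, 2228.94 kb apart across the centromere of II, were joined in 21 interacting and 25 de-crosslinked pairs, with the left end at 579196 in both libraries. The pho841 and pho84 genes, 4309.96 kb apart, were joined in 18 interacting and 27 de-crosslinked pairs, and rpl803 and rpl802, 1125.39 kb apart, in 16 interacting and 7 de-crosslinked pairs. Neighbouring histone genes were both joined with their partners, hhf2 with hhf3 (histone H4) in 4 interacting and 6 de-crosslinked pairs, and the neighbouring hht2 with hht3 (histone H3) in 2 interacting and 2 de-crosslinked pairs. Ribosomal protein genes recurred in this group, with rpl401 and rpl402, rpl2001 and rpl2002, rps101 and rps102, rps601 and rps602, and rps1101 and rps1102 in both libraries. Others were wsc1, a cell wall stress sensor gene, and mtl3, pdc202 and pdc201, and fur4 and SPAC29B12.14C. These genes are named because they recurred, after their values were seen.

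Junctions found in both libraries were not limited to related genes. In all, 191 of 9118 interacting long-range events (2.09%) had both ends within 500 bp of a de-crosslinked event, against 37.3 from the density of ends; between chromosomes it was 393 of 19631 (2.00%), against 77.6 from the density of ends. Of the 191, 37 were events between similar sequences and 154 were not. In 100 of them the ends had a word of 16 or more bases in common between the 300 bp on either side of the ends (52.4%, 45.0 to 59.6), against 405 of the 8927 events found only in the interacting library (4.54%, 4.11 to 4.99). In the de-crosslinked library the share was 49.7% (96 of 193) at shared junctions and 2.33% (369 of 15850) at the others. Both ends were hot in 74 of the 191 (38.7%), against 13.1% of those found only in the interacting library. Between chromosomes the interacting shares were alike, 38.9% at shared junctions and 13.2% at the others. A match within 500 bp is more likely where ends are dense. The hot share and the shared-word share that density alone gives were not computed. These shares therefore do not show a preference for hot ends, and whether shared words make a junction recur was not tested. Like the similar-sequence measure, shared junctions and shared words were chosen after seeing the data, and the counts describe these libraries.

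**Figure D4:**
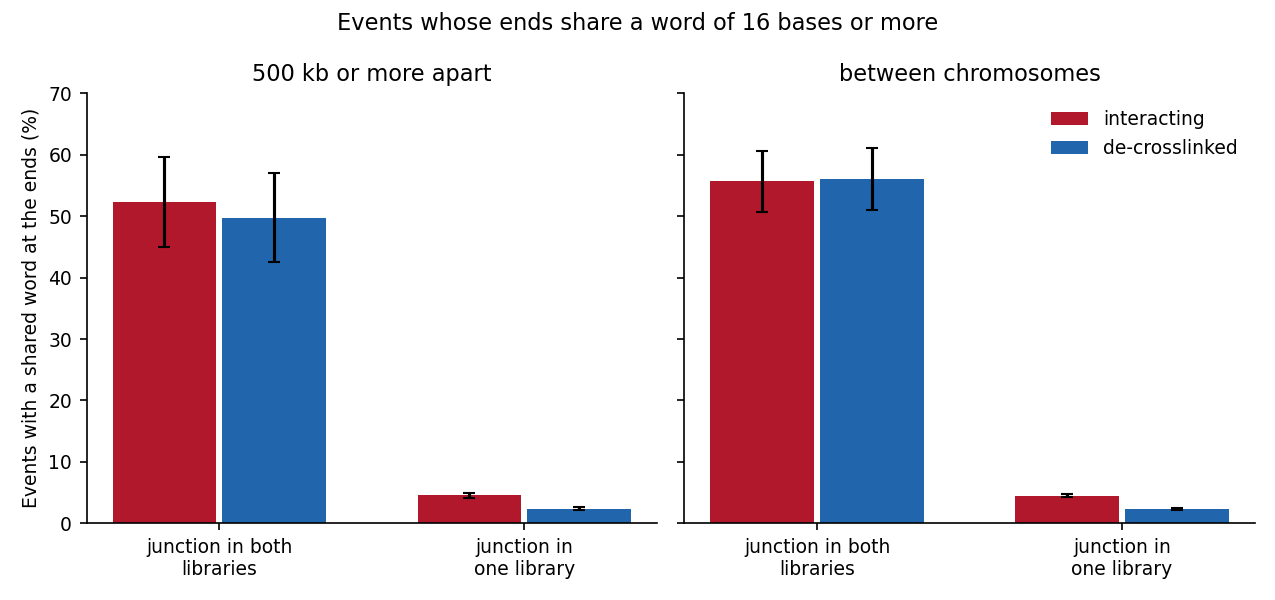
Share of events whose ends have a word of 16 or more bases in common, in percent, for junctions found in both libraries and in 1 library, among events 500 kb or more apart (left) and between chromosomes (right). Bars are the interacting (red) and de-crosslinked (blue) libraries with exact 95% binomial intervals. The bars for junctions in both libraries lie between 49.7% and 56.1%, and those for junctions in 1 library between 2.33% and 4.54%.

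Many of the shared words were simple repeats, which were present in 37 of the 191 interacting events at shared junctions. They are printed to show what the joined places had in common where no gene family did, on the plus strand of the left end in ASM294v3. The first lies near cup1 and in gpd1, a glycerol-3-phosphate dehydrogenase gene, 1838.3 kb apart on II, joined in 13 interacting and 8 de-crosslinked pairs. The second lies near pfl6 and in SPAPB15E9.02C on I, joined in 14 interacting and 11 de-crosslinked pairs, and the same place in SPAPB15E9.02C was joined with fex1, 3937.05 kb away, in 9 interacting and 17 de-crosslinked pairs. The third joins a place near pdc201 with one near SPAC30C2.08 in 11 interacting and 6 de-crosslinked pairs. The last, a repeat of a 5-base unit and not among those 37, which have units of up to 4 bases, lies near cdh1 and, at the right end of II, on the side of tlh2, a gene for a telomere-linked helicase, with 52 interacting and 21 de-crosslinked pairs.
cup1 and gpd1, chrII:2198946-2198972: CACACACACACACACACACACACACAC
pfl6 and SPAPB15E9.02C, chrI:43335-43360: GAAAAAAAAAAAAAAAAAAAAAAAAA
pdc201 and SPAC30C2.08, chrI:3159191-3159213: ACACACACACACACACACACACA
cdh1 and tlh2, chrII:2738839-2738858: AAATAAAATAAAATAAAATA

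Hot and cold ends, by the authors' class, were next compared. Both ends were hot in 1245 of 9118 interacting events (13.7%, 13.0 to 14.4) and 2605 of 16043 de-crosslinked events (16.2%, 15.7 to 16.8; Fisher's exact test, adjusted p = 1.68e-07). Fewer ends were hot in the interacting library to begin with, 34.7% against 39.1% of long-range ends in the de-crosslinked library, and random joining of all ends gives 12.7% for the interacting, against 15.2% for the de-crosslinked library.

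A measure that does not depend on that share, chosen after seeing the data, is the odds ratio between the classes of an event's ends, 4 times the hot-hot count times the cold-cold count over the square of the hot-cold count. It is 1 where classes are joined at random and above 1 where like classes are joined more often. For long-range events it was 1.37 (log2 odds 0.45 ± 0.07, SE) in the interacting library, against 1.17 (0.23 ± 0.05) in the de-crosslinked library, where joining by position alone gives 1.00 for the interacting, against 0.998 for the de-crosslinked library. The log2 difference was 0.22 ± 0.08 (SE; Wald chi-square test, p = 0.00701, adjusted p = 0.0228 over 13 such comparisons). Joins between chromosomes had an odds ratio of 1.33 (1.25 to 1.42) in the interacting, against 1.17 (1.12 to 1.22) in the de-crosslinked library; long-range minus between-chromosome log2 odds were 0.04 ± 0.08 in the interacting (chi-square test, adjusted p = 0.693), against 0.01 ± 0.06 in the de-crosslinked library (adjusted p = 0.925). Events closer than 500 kb had an odds ratio of 2.08 (1.88 to 2.30) in the interacting, against 1.97 (1.76 to 2.21) in the de-crosslinked library.

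Within the long-range events the class preference was stronger along an arm than across the centromere in the interacting library. The same-arm odds ratio was 1.58 (log2 odds 0.66 ± 0.10) in the interacting, against 1.24 (0.31 ± 0.07) in the de-crosslinked library. Across the centromere it was 1.21 (0.28 ± 0.09) in the interacting, against 1.12 (0.16 ± 0.07) in the de-crosslinked library. Same arm minus across the centromere was 0.38 ± 0.13 on the log2 scale in the interacting library (chi-square test, adjusted p = 0.0191), against 0.16 ± 0.10 in the de-crosslinked library (adjusted p = 0.220). These contrasts themselves differed by 0.22 ± 0.16, which did not pass the chi-square test (adjusted p = 0.286), so a stronger contrast in the interacting library is not shown. Same-arm events were also shorter. Their median distance was 1188 kb, against 2309 kb across the centromere, in the interacting library, and 1210 kb against 2364 kb in the de-crosslinked library. Arm and distance cannot be told apart in these contrasts. By chromosome, the odds ratio was 1.36 on I, 1.33 on II and 1.53 on III in the interacting library, against 1.22 on I, 1.08 on II and 1.21 on III in the de-crosslinked library; no single chromosome passed the chi-square test of the difference (adjusted p = 0.272, 0.0977 and 0.345 on I, II and III).

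**Figure D5:**
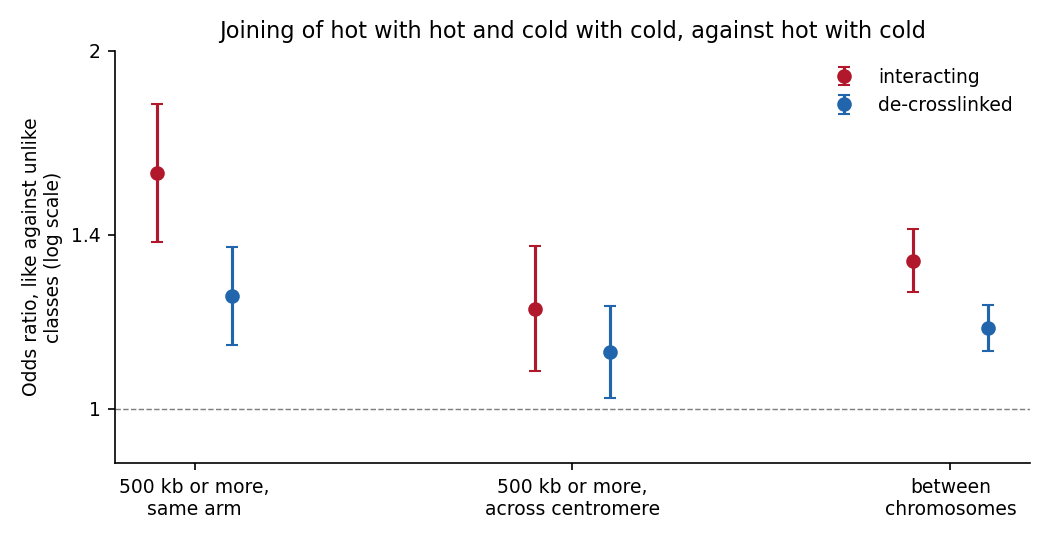
Odds ratio of like classes (hot with hot, cold with cold) against unlike classes at the ends of an event, on a log scale, for events 500 kb or more apart on the same arm and across the centromere and for events between chromosomes. Points are the interacting (red, left) and de-crosslinked (blue, right) libraries, bars are 95% counting intervals, and the dashed line at 1 is random joining of the classes. The same-arm interacting point is highest at 1.58, and all 6 intervals lie above 1.

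Between individual hotspots the joins were sparse and mostly seen once. Runs of hot ends along the chromosome, over both tables and unbroken by a cold end, made 451 hot regions with a median width of 5314 bp, which make 29095 pairs of regions 500 kb or more apart. At least 1 event joined 1093 of these pairs (3.76%) in the interacting library, against 2135 (7.34%) in the de-crosslinked library. Pairs with 2 or more events numbered 117 (0.402%) in the interacting, against 333 (1.14%) in the de-crosslinked library, and those with 3 or more 31 (0.107%) in the interacting, against 86 (0.296%) in the de-crosslinked library. The pairs joined in both libraries, 316, were 28.9% of the interacting and 14.8% of the de-crosslinked list. These figures are set by depth as well as by joining, since the de-crosslinked library has more events. Regions with many ends in both libraries also raise the overlap. The overlap that end density alone gives was not computed, so the 316 pairs do not show that particular joins recur.

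The 10 pairs of hot regions with most interacting events are given here, with ties at 3 events broken by the number of pairs, so that most of the 31 pairs above are not named. The region of SPAC17A2.10C and SPAC17A2.11 was joined with that of hsr1, a stress-response transcription factor, 1622.2 kb away, in 5 interacting and 5 de-crosslinked events, which is the interacting maximum. It met the region of gti1, a regulator of gluconate uptake, in 4 interacting and 2 de-crosslinked events, and that of SPAC1399.02 in 3 interacting and 0 de-crosslinked events. The ste7 region, whose gene acts in mating and meiotic entry, was joined with the mug115 and esc1 region, 692.388 kb away, in 4 interacting and 7 de-crosslinked events, and with the pabp region in 3 interacting and 2 de-crosslinked events. The hsr1 region met that of ddr48 and gpa2, the G protein subunit of glucose sensing, in 4 interacting and 2 de-crosslinked events, and that of gti1 in 3 interacting and 6 de-crosslinked events. Also on I, the region holding isp7 and mal2 was joined with that of gpm1 and pda1 in 3 interacting and 0 de-crosslinked events. On II, the fhn1 region was joined across the centromere with that of ste11, the transcription factor that starts mating and meiosis, in 4 interacting and 3 de-crosslinked events, and on its own arm with that of rtn1 and but2 in 3 interacting and 4 de-crosslinked events. With at most 5 interacting events a pair, no single pair was tested.

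The 5 pairs with most events in the de-crosslinked library all held the mug115 and esc1 region, with ties broken by the number of pairs; the gti1 and hsr1 pair, at 6 de-crosslinked events, tied with the last of them. Besides ste7, the mug115 and esc1 region met the SPAC17A2.11 region in 1 interacting and 10 de-crosslinked events. It met the region of plb2, a phospholipase gene, in 3 interacting and 8 de-crosslinked events. With the region of abp1 and adg1 it was joined in 0 interacting and 7 de-crosslinked events, and with that of gti1 in 1 interacting and 6 de-crosslinked events.

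Most of the windows with the most ends of long-range events lay at these regions, but those of tlh2 and of pfl2 did not. Per window of 10 kb the median was 13 ends in the interacting, against 22 in the de-crosslinked library. The window of mug115 and esc1 held 120 interacting and 283 de-crosslinked ends, and that of hsr1 112 interacting and 222 de-crosslinked ends. The SPAC17A2.11 window held 105 interacting and 155 de-crosslinked ends, the tlh2 window at the right end of II 95 interacting and 151 de-crosslinked, and that of pfl2 and the retrotransposon Tf2-5 87 interacting and 165 de-crosslinked. The gti1 window held 77 interacting and 212 de-crosslinked ends, and the ste11 window 69 interacting and 159 de-crosslinked. Of all ends in these windows, between 25.2% (ste11) and 38.4% (hsr1) were of long-range events in the interacting library, and between 26.8% (ste11) and 37.2% (gti1) in the de-crosslinked library. The share over all ends was 32.6% on I and 24.8% on II in the interacting library, and 36.2% on I and 27.9% on II in the de-crosslinked library; ste11 lies on II, and hsr1 and gti1 on I. Along the genome in 100 kb windows, the counts of long-range ends in the interacting and de-crosslinked libraries went together (Pearson's r = 0.949, Spearman's rho = 0.935 over 127 windows, a description, since both share the hot regions and the mappable sequence).

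Of the 5 events with most pairs in each library, all but 1 were found in that library alone. The same held for most long-range events of any size, 8927 of 9118 interacting and 15850 of 16043 de-crosslinked, so it does not set the largest events apart. An event held 2.62 pairs on average in the interacting, against 2.17 in the de-crosslinked library, and 63.1% of interacting and 60.6% of de-crosslinked events were a single pair. Events of 10 or more pairs, 457 interacting and 304 de-crosslinked, held 30.1% of all long-range pairs in the interacting, against 13.3% in the de-crosslinked library. The largest interacting event joined rrp46, an exosome subunit gene, with str1 in 55 pairs, and 0 de-crosslinked pairs were found there. Next came the cdh1 and tlh2 junction printed above, prp16 (a splicing factor gene) with dis3 (an exosome nuclease gene) in 49 pairs, shd1 with SPAC458.02C in 48, and ade3 with nup189 in 46, the last 3 with 0 de-crosslinked pairs. The largest de-crosslinked event, thf1 with pst1, had 72 pairs, followed by ghs2 with pho842 in 64, sec6 with SPCC1795.12C in 55, SPAC13G7.09C with idp1 in 48 and ght2 with vma7 in 48, all with 0 interacting pairs. Both libraries were amplified, so the pairs of an event cannot be taken as independent molecules, which is why events and not pairs were compared. How many of them are copies was not tested.

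Most ends lay in genes. The share of the genome that genes cover was not computed, so no preference for genes is shown. Of 18236 long-range ends in the interacting library 72.2% lay in protein-coding genes, 16.2% in a long non-coding RNA alone and 11.6% in neither. Of 32086 in the de-crosslinked library 71.4% lay in protein-coding genes, 18.1% in a long non-coding RNA alone and 10.5% in neither. The interacting ends of joins between chromosomes were spread alike, with 72.1% in protein-coding genes, 16.3% in a long non-coding RNA alone and 11.6% in neither.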

How the data were processed

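Ligation pairs were taken from the authors' deposited tables, 1 line per pair with a chromosome, a position and a hot or cold class for each end; these are positions and classes, not counts, and the counts were made here. The submitters' processing notes list CASAVA 1.8.0; the aligner, genome build and rule for hot and cold are not given in the sources used here. Depth was 101984 interacting and 123434 de-crosslinked pairs, 1 library per group. Of 450836 ends, 0 lay in the stretches of RefSeq ASM294v3 (468576 bp) that hold no unique 50-base word, against 2460 and 2466 with positions moved by 100 bp either way, so positions are given on that assembly, whose annotation gave the gene names. The highest position on II is slightly beyond that chromosome's assembled length.

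Pairs with both ends within 500 bp (single linkage) were merged into events. Expected numbers are products of a library's own end counts in 1 kb bins. Shares were compared with Fisher's exact test and levels and odds with a Wald z test on Poisson counts (chi-square with 1 degree of freedom), with Benjamini-Hochberg adjustment over 9 results and a threshold of 0.05; the odds for hot and cold form a separate family of 13 comparisons, and the similar-sequence share is unadjusted. Similar sequences came from a blastn 2.17.0 alignment of each chromosome with itself (word 16, e-value 1e-10). Python 3.11.15 and scipy 1.17.1 were used, and the scripts were tested on simulated data. Genes were named by rule: those at the 10 interacting and 5 de-crosslinked pairs of hot regions with most events, at the 5 events with most pairs and in the 5 windows of 10 kb with most ends of each library. All other named genes lie outside this rule and were chosen later. The rule for the pairs and all lists were chosen with earlier results of these data known. Merging distance, minimum distance, windows, chromosomes and minimum pairs per event were varied.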

Additional observations from a re-analysis of the deposited data

How the results depend on the processing

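Of 158 alternative values, 134 kept their direction and side of the threshold, or stayed within 1.5 times for a count. The shares of long-range and of hot-hot events did so under all 13 alternatives run for each. In percentage points, interacting minus de-crosslinked, the cross-centromere share was 2.13 without chromosome I, 1.78 without II and 1.64 with only events of 2 or more pairs, past the threshold in none. The end-to-end share was 0.271 without II, 0.195 without III, 0.345 with windows of double the size, 0.124 without similar sequences and 0.141 without shared words, past it in none. The centromere-mirrored share was -0.990 with every pair counted, past the threshold, and 0.237 without I; the telomere-mirrored share was 0.0559 without II and 0.412 with narrower windows; the centromere-proximal share was -0.437 without I. The same-arm level log2 ratio was -0.0505 with every pair counted, past the threshold, and 0.0188 with only events of 2 or more pairs, and the cross-centromere ratio -0.00804 with every pair counted. The like-class log2 difference was 0.17 beyond 1000 kb, 0.18 without II and 0.21 with only events of 2 or more pairs, past it in none; its p-values are unadjusted here, and at 0.0159 without I and 0.0200 without shared junctions they would be doubtful after the adjustment over 13 comparisons used for the reported value. The similar-sequence share differed by 0.00301 points without events sharing a 16-base word, which removes most such events by construction. Shared junctions numbered 94 without I, 124 without II, 45 with only events of 2 or more pairs and 89 without shared words. For the other changes the cause was not tested. Settings without similar sequences, without shared words and without shared junctions were added after seeing the data, and the first was not run for the levels.

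No paired analysis was possible because each group is 1 library. Counts of end-to-end events and of single hot-region pairs are too small to show a modest difference, and amplification copies beyond the 500 bp merge and places that no unique read can reach limit every count.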

Other observations

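The ends of the chromosomes held a larger share of long-range ends than the whole chromosome in every case, though some intervals cover the chromosome's share. Within 100 kb of the left end of II, 33.3% of interacting ends (27.9 to 39.1) and 31.5% of de-crosslinked ends (26.4 to 37.0) belonged to events 500 kb or more apart, against 24.8% of interacting and 27.9% of de-crosslinked ends over the whole of II. On III the left end held 52 long-range ends of 326 in the interacting, against 68 of 534 (12.7%) in the de-crosslinked library, where the whole chromosome stood at 11.3% interacting and 12.1% de-crosslinked. A place near a chromosome end has more of the chromosome beyond 500 kb than a place in the middle, and the values were not corrected for this.

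The class of events near long terminal repeats or Tf2 elements was the largest, yet held few pairs per event: 61 interacting events with 81 pairs and 44 de-crosslinked events with 57 pairs. The protein-coding class had 23 interacting events with 108 pairs and 18 de-crosslinked events with 99. Of the events near repeats, 8 in each library lay at a junction found in both, and of the protein-coding events 14 in each.

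Similar-sequence events closer than 500 kb took 1.49% of the closer events in the interacting, against 1.66% in the de-crosslinked library, without the excess in the interacting library seen among long-range events. The difference between both sets of events was not tested. Chromosomes were not aligned with each other, so joins between chromosomes have no such share. By shared 16-base words, those joins stood at 5.52% in the interacting, against 2.96% in the de-crosslinked library. Long-range events stood at 5.54% in the interacting, against 2.90% in the de-crosslinked library.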
